A study of Mus musculus with 16 samples.

Results

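The respiratory chain genes described here encode the nuclear subunits of the mitochondrial complexes that carry out oxidative phosphorylation, together with a family of complex I assembly factors. They were taken as every array row with a single gene symbol that begins with Ndufa, Ndufb, Ndufc, Ndufs, Ndufv, Uqcr, Atp5 or Cox followed by 4 to 8, plus Sdha, Sdhb, Sdhc and Sdhd, with the row of highest mean kept for each gene. This gave 89 of the 22180 genes that had a row of their own. They were 32 complex I subunits, 8 complex I assembly factors, 4 subunits of complex II, 8 genes of complex III, 19 of complex IV and 18 of the ATP synthase. All 89 matched a RefSeq gene, and 2 of them, Uqcrh-ps1 and Atp5c1-ps, are named as pseudogenes. None of the 13 mitochondrially encoded subunits had a row of its own under its symbol, so they were not analysed here, and neither were 10 rows that carry several symbols of which 1 matches.

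In oxidative phosphorylation, complexes I and II pass electrons from NADH and succinate to coenzyme Q, complex III passes them on to cytochrome c, and complex IV passes them to oxygen. Complexes I, III and IV pump protons across the inner mitochondrial membrane, and the ATP synthase uses the gradient to make ATP. Several complex IV subunits exist as paralog pairs, a form found in most tissues and a form best known from heart, skeletal muscle, lung or testis. Sensory hair cells of the inner ear rely on mitochondrial ATP and are known to be sensitive to mitochondrial damage.

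RNA was measured on 16 Affymetrix whole-transcript arrays from the mouse embryonic stem cell line iGPA-Myo7a:mVenus, grown as floating embryoid bodies (EBs). In this line doxycycline (Dox) induces Atoh1, Gfi1 and Pou4f3, which act in hair cell development, and a Myo7a:mVenus reporter marks cells that were then sorted as induced hair cells (iHCs). The iHC groups were Dox plus retinoic acid (Dox+RA) at day 12, Dox alone at day 12, Dox+RA at day 8 and Dox alone at day 8, with 3 arrays each and treatment from day 4, which is 8 or 4 days of treatment. The control EBs of day 12 and of day 8, with 2 arrays each, were of the same line, with neither Dox nor RA, and were not sorted. All groups therefore share the inducible and reporter alleles of a single line, and the effects of treatment and of sorting cannot be told apart. The labels call the arrays biological replicates from independent RNA preparations. The 3 induced factors had a mean log2 value between 11.01 and 11.39 on the 12 iHC arrays and between 5.44 and 5.79 on the 4 EB arrays. Arrays of the same group correlated at 0.982 to 0.995 over all genes. Of 8 hair cell markers, 5 or 6 were higher in each iHC group than in EBs and none was lower.

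Values are log2 intensities after robust multi-array averaging (RMA), and a difference of 1 is a 2-fold difference. Probe sets of different genes differ in brightness, so levels are compared only between samples of the same gene. On all 16 arrays, 9 members lay below the lowest array median over the genes tested, 5.14. They are called dim rows here, and differences between such values may be near background. They were Atp5c1-ps, Atp5g1, Atp5j2, Cox7b2, Cox7c, Cox8c, Ndufaf2, Ndufaf5 and Uqcrh-ps1. A gene is called higher or lower where the adjusted p of limma's moderated test, corrected over all 22180 genes by the Benjamini-Hochberg method, was under 0.05. In bulk RNA, fewer cells of a type and less RNA per cell cannot be told apart.

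Against control EBs, more respiratory chain genes were lower than higher in every iHC group. In Dox+RA iHCs at day 12, 42 of the 89 genes were called, 13 higher and 29 lower, against 44.8% of all genes called in that comparison, 22.4% higher and 22.4% lower. In Dox iHCs at day 12, 38 were called, 12 higher and 26 lower, against 40.8% of all genes, 19.2% higher and 21.7% lower. In Dox+RA iHCs at day 8, 37 were called, 10 higher and 27 lower, against 41.6% of all genes, 19.6% higher and 22.0% lower. In Dox iHCs at day 8, 24 were called, 7 higher and 17 lower, against 34.6% of all genes, 15.7% higher and 18.9% lower. The share of members called was 47.2%, 42.7%, 41.6% and 27.0% in that order of groups, near that of all genes or below it. The share called lower was 32.6%, 29.2%, 30.3% and 19.1%, and the share called higher was 14.6%, 13.5%, 11.2% and 7.87%. Dox+RA and Dox iHCs of a day were set against the same EB arrays, so their counts are not independent of each other.

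Markers of other cell types moved in the same comparisons. All 5 endothelial markers were lower in all 4 iHC groups, with a mean level of 4.55 to 6.32 on the iHC arrays and 7.69 to 8.53 on the EB arrays. The 3 red cell markers with a row of their own were lower in all 4 groups too, with a mean level of 3.80 to 4.94 on the iHC arrays and 5.30 to 7.71 on the EB arrays. Of 5 neuronal markers, 2 were higher and 1 lower in Dox+RA iHCs and 3 and 1 in Dox iHCs at day 12, and 3 and 4 were higher and none lower at day 8, with a mean level of 5.62 to 6.45 on the iHC arrays and 4.597 to 5.06 on the EB arrays. The part of these cell types in the member values was not tested.

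Most of these differences were small. The median log2 difference over the 89 genes was -0.12 in Dox+RA iHCs and -0.14 in Dox iHCs at day 12, and -0.13 in each at day 8, against 0.07, 0.02, 0.05 and 0.02 for all genes in the same order. A called difference of 2-fold or more was found for 6 and 2 members at day 12 and for 5 and 2 members at day 8, in Dox+RA and Dox iHCs each time, against 17.1% and 15.4% of all genes at day 12 and 15.8% and 11.9% at day 8. The split at day 12 depended on scaling. With every array shifted to a common median, 15 members were higher and 21 lower in Dox+RA iHCs and 14 higher and 17 lower in Dox iHCs, while all genes then had a median difference of 0.12 and 0.09. The share of members called lower was then 23.6% against 20.6% of all genes in Dox+RA iHCs, and 19.1% against 19.4% in Dox iHCs. At day 8 it was 27.0% against 21.3% in Dox+RA iHCs, and 16 of the 89 members against 18.6% in Dox iHCs. With quantile normalization over the genes tested it was 29.2% against 22.1% and 24.7% against 21.0% at day 12, and 25.8% against 21.2% and 16 of the 89 members against 18.4% at day 8, in Dox+RA and Dox iHCs each time. The higher share of members called lower was thus not seen under every scaling in Dox iHCs. The share called higher was below that of all genes under each of these scalings. Leaving out the second day 12 EB array left 23 members called in Dox+RA iHCs and 21 in Dox iHCs, and leaving out the first left 25 in Dox iHCs. Leaving out the second day 8 EB array left 24 in Dox+RA iHCs and 15 in Dox iHCs. Shares of all genes are not given for the fits without an array, so a change relative to all genes cannot be read from them.

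**Figure D1:**
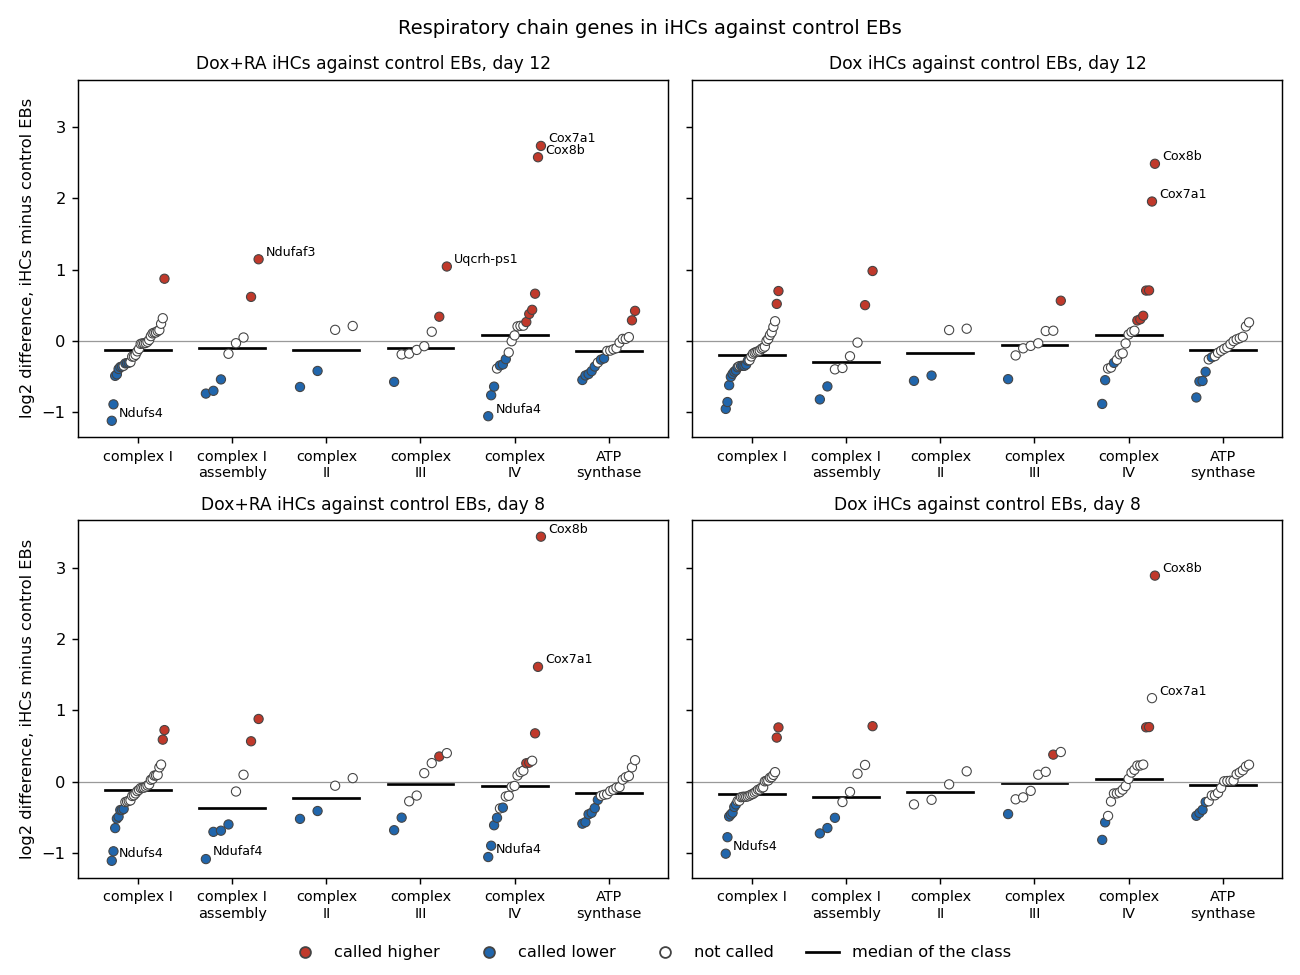
Log2 difference of each of the 89 respiratory chain genes between an iHC group and the control EBs of the same day, in 4 panels, with genes grouped by complex along the axis, red for genes called higher, blue for genes called lower, white for genes not called and a black bar at the median of each class. Most genes lie within 1 log2 unit of 0, and 2 complex IV genes, Cox8b and Cox7a1, stand far above the rest.

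**Figure D2:**
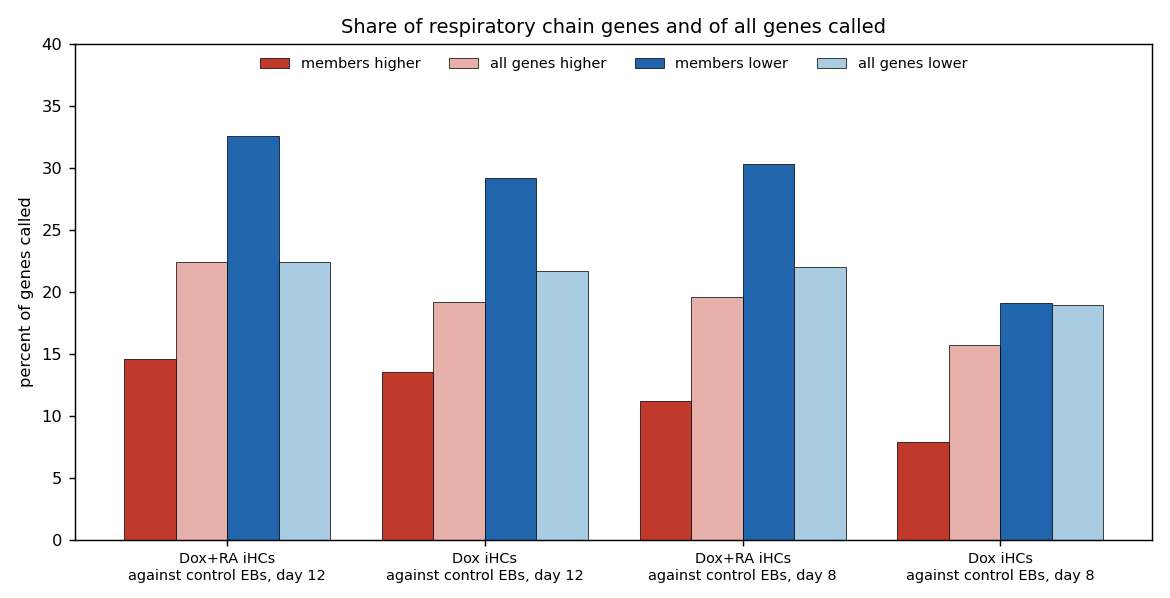
Bars give the percent of the respiratory chain genes and of all genes tested that were called higher or lower than in control EBs, for each iHC group. The percent called lower is above that of all genes in 3 groups and close to it in Dox iHCs at day 8 (19.1% against 18.9%), and the percent called higher is below that of all genes in each group.

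The calls at both ages can be set side by side, and each day had its own EB controls. The fit used a shared estimate of the spread per gene over all 16 arrays. The calls of both days are thus not independent of each other. In Dox+RA iHCs, 8 genes were higher on both days, 61.5% of those higher at day 12 and 80.0% of those higher at day 8, and 22 were lower on both, 75.9% and 81.5%. In Dox iHCs, 5 genes were higher on both days, 41.7% of those higher at day 12 and 71.4% of those higher at day 8, and 15 were lower on both, 57.7% and 88.2%. The 5 were Cox7a2, Cox8b, Ndufaf3, Ndufs5 and Ndufv3. The share of all genes called on both days was not worked out, so these shares cannot show a persistence particular to the members.

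The promoter windows of the 2 genes with the highest and the 2 with the lowest difference in Dox+RA iHCs at day 12 are shown as examples from both ends of the range. RefSeq windows (GRCm38.p6, 250 bases before to 50 after the gene's start) were at hand for 72 of the 89 genes, as 77 windows. Each is read 5′ to 3′ on the gene's strand. Cox8b lies on the minus strand at chr7:140900397-140900696, Cox7a1 on the plus strand at chr7:30183921-30184220, Ndufs4 on the minus strand at chr13:114388045-114388344 and Ndufa4 on the minus strand at chr6:11907401-11907700. Capitals mark every match to a searched motif.
Cox8b: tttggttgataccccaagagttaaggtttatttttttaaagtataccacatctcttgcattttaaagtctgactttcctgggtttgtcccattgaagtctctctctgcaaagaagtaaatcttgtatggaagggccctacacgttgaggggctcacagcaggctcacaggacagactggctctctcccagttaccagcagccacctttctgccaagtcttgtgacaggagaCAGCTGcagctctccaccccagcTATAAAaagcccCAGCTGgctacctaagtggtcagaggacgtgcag
Cox7a1: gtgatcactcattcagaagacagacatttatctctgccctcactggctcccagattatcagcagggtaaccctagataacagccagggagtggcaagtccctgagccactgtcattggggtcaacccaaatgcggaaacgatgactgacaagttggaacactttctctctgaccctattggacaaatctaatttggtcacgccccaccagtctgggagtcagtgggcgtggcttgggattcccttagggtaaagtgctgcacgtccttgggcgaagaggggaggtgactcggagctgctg
Ndufs4: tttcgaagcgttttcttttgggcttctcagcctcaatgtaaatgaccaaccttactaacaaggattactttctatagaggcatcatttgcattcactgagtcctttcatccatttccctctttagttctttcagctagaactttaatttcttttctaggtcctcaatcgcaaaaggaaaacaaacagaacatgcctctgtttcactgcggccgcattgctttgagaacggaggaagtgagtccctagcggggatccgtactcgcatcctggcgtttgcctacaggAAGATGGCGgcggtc
Ndufa4: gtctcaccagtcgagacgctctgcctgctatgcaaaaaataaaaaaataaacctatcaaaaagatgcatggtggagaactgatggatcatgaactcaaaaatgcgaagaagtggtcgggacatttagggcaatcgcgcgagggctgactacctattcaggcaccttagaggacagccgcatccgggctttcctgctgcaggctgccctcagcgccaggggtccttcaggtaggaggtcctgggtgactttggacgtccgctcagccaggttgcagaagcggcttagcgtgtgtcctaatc
The motifs were searched as fixed letters on both strands and were chosen with the windows in view. In the Cox8b window the E-box CAGCTG, a letter pattern that basic helix-loop-helix factors such as Atoh1 can bind, begins at positions -19 and 17 relative to the start, and TATAAA begins at position 5. The Ndufs4 window holds AAGATGGCG, a YY1 pattern, from position 36. The Cox7a1 and Ndufa4 windows hold no searched motif.

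Over all 77 windows, the NRF1 pattern GCGCANGCG was in 27.3%, against 6.25% of all 32851 windows of this length. CCGGAAG, which GABP and other ETS factors bind, was in 24.7% against 8.86%, and AAGATGGCG in 9.09% against 1.4%. AAGGTCA, a half-site of the estrogen-related receptors, was in 7.79% against 4.72%. The consensus of MEF2, a muscle and neuronal factor, was in 0 of the 77 windows, against 0.557% of all. CAGCTG was in 7.79% against 16.3%, CAGATG in 10 of the 77 windows against 17.2% of all, and TATAAA in 11.7% against 13.6%. NRF1, GABP and YY1 are known as regulators of nuclear genes for mitochondrial proteins. A match here describes the letters of the window and shows no binding.

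Among the 32 complex I subunits, 1 was higher and 10 lower in Dox+RA iHCs at day 12, 2 and 13 in Dox iHCs at day 12, 2 and 8 in Dox+RA iHCs at day 8 and 2 and 7 in Dox iHCs at day 8. The share lower was 31.2% and 40.6% at day 12 and 25.0% and 21.9% at day 8, in Dox+RA and Dox iHCs each time. For all genes it was 22.4% and 21.7% at day 12 and 22.0% and 18.9% at day 8. The share higher was below that of all genes in each group. The median difference of these subunits ran from -0.12 to -0.20. The 5 subunits Ndufs4, Ndufb6, Ndufc1, Ndufa10 and Ndufa12 were lower in all 4 iHC groups. A second, dimmer row for Ndufa12 had differences of 0.14 and -0.01 at day 12 and -0.18 and -0.30 at day 8, in Dox+RA and Dox iHCs each time. Ndufa11 was called lower at day 12, with differences of -0.31 in Dox+RA iHCs and -0.43 in Dox iHCs. Its second, dimmer row had 0.57 and 0.47 there. Ndufs1 and Ndufv1, core subunits that carry electrons, were not called in any of the 4 iHC groups. Ndufa6, an accessory subunit, was called lower in Dox+RA iHCs at day 12 with the replicate block (-0.37, adjusted p 0.0366) and had an adjusted p of 0.0559 without it.

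Ndufs4, an accessory subunit whose loss in mice gives a model of Leigh syndrome, had log2 values of 8.12, 8.18 and 7.84 in Dox+RA iHCs and 8.14, 8.45 and 8.05 in Dox iHCs at day 12, against 8.95 and 9.39 in EBs. At day 8 it had 8.09, 8.35 and 8.42 in Dox+RA iHCs and 8.31, 8.55 and 8.30 in Dox iHCs, against 9.26 and 9.54 in EBs. Every iHC array was below every EB array on both days. The log2 difference was -1.12 ± 0.17 (SE) in Dox+RA iHCs and -0.95 ± 0.17 in Dox iHCs at day 12, and -1.11 ± 0.17 and -1.01 ± 0.17 at day 8, which is 1.94 to 2.17-fold lower (limma adjusted p between 4.9e-05 and 0.00025).

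Ndufb6, an accessory subunit of the membrane arm, had 6.53, 6.54 and 6.61 in Dox+RA iHCs and 6.57, 6.66 and 6.54 in Dox iHCs at day 12, against 7.34 and 7.56 in EBs. The arrays of the iHC groups lay close together and did not overlap the EBs. Its difference was -0.89 ± 0.11 and -0.86 ± 0.11 at day 12, and -0.98 ± 0.11 and -0.78 ± 0.11 at day 8, in Dox+RA and Dox iHCs each time (limma adjusted p of at most 6.1e-05). Ndufc1 fell by 0.49 to 0.65 on the log2 scale and Ndufa10, another accessory subunit, by 0.46 to 0.52 over the 4 groups. These and Ndufa12 were named after their values were seen.

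Ndufv3, a small accessory subunit of the NADH-binding part, went the other way. It had 7.87, 8.01 and 7.59 in Dox+RA iHCs and 7.78, 7.73 and 7.45 in Dox iHCs at day 12, against 6.90 and 7.005 in EBs, and at day 8 it had 7.70, 7.65 and 7.76 in Dox+RA iHCs and 7.80, 7.60 and 7.39 in Dox iHCs, against 7.13 and 6.83 in EBs. No iHC array reached as low as an EB array. The difference was 0.87 ± 0.15 and 0.70 ± 0.15 at day 12 and 0.72 ± 0.15 and 0.62 ± 0.15 at day 8, in Dox+RA and Dox iHCs each time (limma adjusted p between 0.00017 and 0.00397). The call in Dox iHCs at day 8 was lost without the second EB array of that day. Ndufs5 was higher by 0.52 in Dox iHCs at day 12, by 0.59 in Dox+RA iHCs at day 8 and by 0.76 in Dox iHCs at day 8, and had a difference of 0.32 with an adjusted p of 0.0583 in Dox+RA iHCs at day 12. The Dox call at day 12 was lost without EB replicate 2 of that day. The EB values of Ndufs5, 4.51 to 5.00 over both days, were below the lowest array median of 5.14 and may be near background.

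The 8 assembly factors, which help to build complex I and are not part of the finished enzyme, moved in both directions. Of these, 2 were higher and 3 lower in Dox+RA iHCs at day 12, 2 and 2 in Dox iHCs at day 12, 2 and 4 in Dox+RA iHCs at day 8 and 1 and 3 in Dox iHCs at day 8. For all genes, the share higher was 22.4%, 19.2%, 19.6% and 15.7% in that order of groups. The share lower was 22.4%, 21.7%, 22.0% and 18.9%. Whether the counts among these 8 genes differ from those shares was not tested. Ndufaf3 had 8.07, 8.17 and 7.71 in Dox+RA iHCs and 7.97, 7.94 and 7.55 in Dox iHCs at day 12, against 6.87 and 6.81 in EBs. Its partner in early assembly, Ndufaf4, had 5.17, 5.12 and 4.78 in Dox+RA iHCs and 4.93, 5.00 and 4.85 in Dox iHCs at day 12, against 5.44 and 5.70 in EBs. The products of these genes are known to bind each other, and here the RNA of Ndufaf3 was higher and that of Ndufaf4 lower on every iHC array than on any EB array of the day.

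The difference of Ndufaf3 was 1.15 ± 0.15 and 0.98 ± 0.15 at day 12 and 0.88 ± 0.15 and 0.78 ± 0.15 at day 8, in Dox+RA and Dox iHCs each time (limma adjusted p of at most 0.0006). The difference of Ndufaf4 was -0.54 ± 0.15 and -0.64 ± 0.15 at day 12 and -1.09 ± 0.15 and -0.73 ± 0.15 at day 8 (limma adjusted p of at most 0.00837). Both day 12 calls of Ndufaf4 were lost without the second EB array of that day. All Ndufaf4 values in Dox+RA iHCs at day 8 and in Dox iHCs at day 12 were below 5.14, the lowest array median. So were some values in the other iHC groups. The size of these differences thus rests on values that may be near background. Ndufaf5, which hydroxylates the core subunit Ndufs7 and is a dim row here, fell by 0.70, 0.82, 0.60 and 0.51 in the same order of groups. Ndufaf6 fell by 0.74 in Dox+RA iHCs at day 12, where its values of 5.04, 5.13 and 4.97 were also below that median. It fell by 0.69 and 0.65 in Dox+RA and Dox iHCs at day 8, and its difference of -0.40 in Dox iHCs at day 12 was not called.

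Complex II feeds electrons from succinate into the chain and is also an enzyme of the tricarboxylic acid cycle. The catalytic subunit Sdha and the membrane anchor Sdhd were not called in any iHC group, with differences between -0.06 and 0.21. Sdhc, the other membrane anchor, had 7.07, 7.24 and 7.11 in Dox+RA iHCs and 7.09, 7.28 and 7.31 in Dox iHCs at day 12, against 7.68 and 7.90 in EBs. These groups did not overlap, and Sdhc was lower by 0.65 ± 0.13 and 0.56 ± 0.13 on the log2 scale (limma adjusted p 0.00055 and 0.00191). At day 8 its difference was -0.52 in Dox+RA iHCs, and -0.32 with an adjusted p of 0.0628 in Dox iHCs, where the second iHC array (7.71) lay within the EB range. With the replicate number as a block, Sdhc was called there too (-0.30, adjusted p 0.033), and so was Sdha in Dox+RA iHCs at day 12 (0.29, adjusted p 0.0247). The Dox+RA call of Sdhc at day 8 was lost without EB replicate 2 of that day. Sdhb, the iron-sulfur subunit, was lower by 0.42, 0.49 and 0.41 in the 3 groups in which Sdhc was called, and each of these calls was lost without 1 of the EB arrays.

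In complex III, 2 genes were higher and 1 lower in Dox+RA iHCs at day 12, 1 and 1 in Dox iHCs at day 12, 1 and 2 in Dox+RA iHCs at day 8 and 1 and 1 in Dox iHCs at day 8. The shares higher and lower were each 12.5% to 25.0%, against 15.7% to 22.4% and 18.9% to 22.4% of all genes. Uqcrc1, a core subunit on the matrix side, was lower in all 4 groups. It had 8.87, 9.11 and 8.86 in Dox+RA iHCs and 9.09, 8.95 and 8.92 in Dox iHCs at day 12, against 9.57 and 9.47 in EBs, with no overlap. The difference was -0.57 ± 0.15 and -0.54 ± 0.15 at day 12 and -0.68 ± 0.15 and -0.45 ± 0.15 at day 8 (limma adjusted p between 0.00152 and 0.0263). The Dox calls were lost without EB replicate 1 of day 12, and without EB replicate 1 or 2 or Dox replicate 2 of day 8. Uqcrc2, its partner, and Uqcrfs1, the Rieske iron-sulfur protein, were not called.

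Uqcrh, the hinge protein, was called against EBs at day 8 alone, and its pseudogene-named relative Uqcrh-ps1 at day 12 alone. Neither was called for a change over time that differed from that of EBs. The limma adjusted p of that test was 0.0877 and 0.256 in Dox+RA iHCs and 0.206 and 0.88 in Dox iHCs, for Uqcrh and Uqcrh-ps1 each time. Uqcrh was higher by 0.35 in Dox+RA iHCs and 0.38 in Dox iHCs at day 8, and had differences of -0.19 and -0.03 at day 12. Both day 8 calls were lost without EB replicate 1, and also without Dox+RA replicate 1 for Dox+RA iHCs and Dox replicate 2 for Dox iHCs. Uqcr11, a small subunit, was higher by 0.34 in Dox+RA iHCs at day 12 and, with the replicate block, at day 8 (0.31, adjusted p 0.0301). Uqcrq was lower by 0.50 in Dox+RA iHCs at day 8 alone. Uqcrh-ps1, a dim row, was higher by 1.05 ± 0.18 in Dox+RA iHCs and 0.57 ± 0.18 in Dox iHCs at day 12 (limma adjusted p 0.00019 and 0.0197), the Dox call being lost without Dox replicate 1 or 2 or EB replicate 2. Probes of such near-copies may share signal, so these values are uncertain.

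Complex IV held the largest differences and had as many genes called higher as lower, or more, in all 4 groups, though with the replicate block 5 were higher and 6 lower in Dox+RA iHCs at day 8. Of its 19 genes, 6 were higher and 6 lower in Dox+RA iHCs at day 12, 7 and 3 in Dox iHCs at day 12, 5 and 5 in Dox+RA iHCs at day 8 and 3 and 2 in Dox iHCs at day 8. The share higher was 31.6%, 36.8%, 26.3% and 15.8% in that order, against 22.4%, 19.2%, 19.6% and 15.7% of all genes. The share lower was 31.6%, 15.8%, 26.3% and 10.5%, against 22.4%, 21.7%, 22.0% and 18.9%. The genes that were higher include the tissue-restricted forms Cox8b and Cox7a1, and those that were lower include Ndufa4, Cox5a and Cox4i1.

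Cox8b, the form of subunit 8 known from heart and skeletal muscle of the mouse, had the highest difference of all 89 genes in 3 of the 4 iHC groups. It had log2 values of 7.03, 6.58 and 5.83 in Dox+RA iHCs and 6.69, 6.68 and 5.79 in Dox iHCs at day 12, against 3.89 and 3.91 in EBs. At day 8 it had 7.32, 7.22 and 7.34 in Dox+RA iHCs and 7.21, 7.13 and 5.90 in Dox iHCs, against 3.84 and 3.86 in EBs. The groups were far apart, and replicate 3 was the lowest iHC array in 3 of the 4 groups. The difference was 2.58 ± 0.37 and 2.49 ± 0.37 at day 12, and 3.44 ± 0.37 and 2.89 ± 0.37 at day 8, in Dox+RA and Dox iHCs each time (limma adjusted p between 2.4e-06 and 6.1e-05). The EB values are those of a dim row, below the median of every array, so the size of this difference rests on values that may be near background. The commoner form Cox8a was higher by 0.38 ± 0.09 and 0.35 ± 0.09 at day 12 and by 0.27 ± 0.09 in Dox+RA iHCs at day 8, and had a difference of 0.23 with an adjusted p of 0.0661 in Dox iHCs at day 8. Its Dox call at day 12 was lost without EB replicate 1, and its Dox+RA call at day 8 without EB replicate 1 or Dox+RA replicate 1 or 3. Cox8c, known from testis, was called in no group.

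Cox7a1, the form of subunit 7a known from heart and skeletal muscle, had 8.78, 8.64 and 7.49 in Dox+RA iHCs and 8.40, 7.89 and 6.28 in Dox iHCs at day 12, against 5.52 and 5.61 in EBs. At day 8 it had 7.59, 7.53 and 7.17 in Dox+RA iHCs and 7.28, 7.28 and 6.41 in Dox iHCs, against 5.61 and 6.02 in EBs. Every iHC array was above the EBs of its day, with replicate 3 the lowest in each iHC group. The difference was 2.74 ± 0.49 in Dox+RA iHCs and 1.96 ± 0.49 in Dox iHCs at day 12, or 6.67 and 3.88-fold (limma adjusted p 0.00029 and 0.00448), and 1.61 ± 0.49 in Dox+RA iHCs at day 8 (limma adjusted p 0.0154, a call that was lost without the first EB array). In Dox iHCs at day 8 it was 1.17 ± 0.49 with an adjusted p of 0.0819, and it was called in a fit with the replicate number as a block, where it was 1.53 with an adjusted p of 0.00033. The commoner form Cox7a2 was higher by 0.66 to 0.77, with an SE of 0.12, in all 4 groups (limma adjusted p of at most 0.00032).

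**Figure D3:**
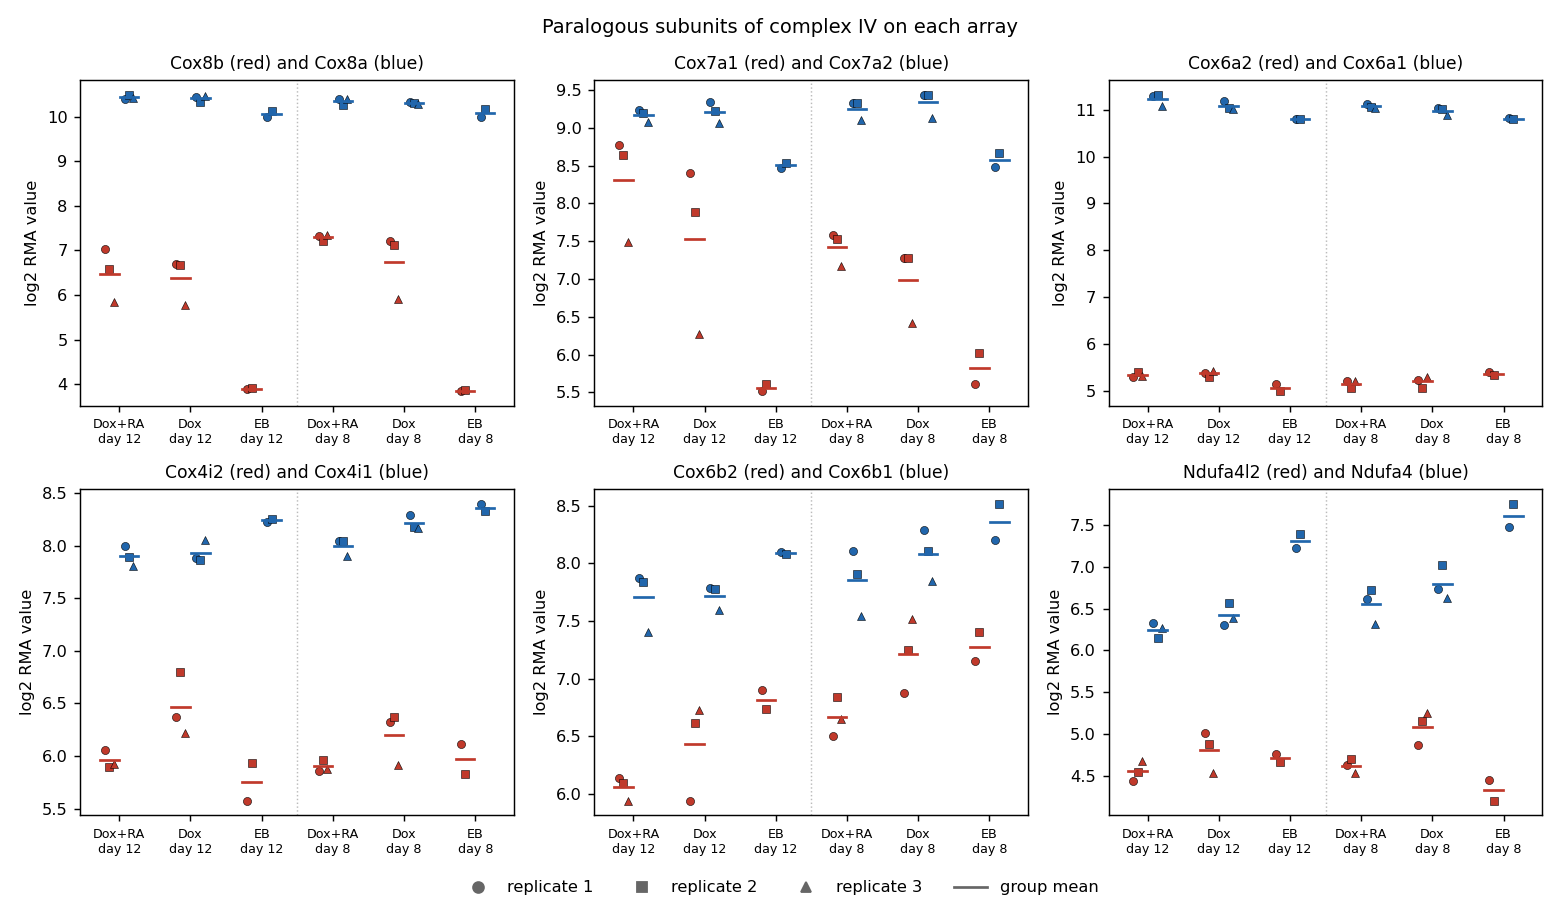
Log2 RMA value on each of the 16 arrays, by group, for the 6 paralog pairs of complex IV, with symbols for replicate 1, 2 and 3 and a bar at the group mean. Cox8b and Cox7a1 lie above the EBs on all 12 iHC arrays, while Ndufa4 lies below the EBs of the same day on all of them.

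The muscle marker genes moved in both directions, and Tnnt2, Nppa and Ckm are named after their values were seen. Of 10 cardiomyocyte markers, 1 was higher and 5 lower in Dox+RA iHCs at day 12, 1 and 3 in Dox iHCs at day 12, and 1 and 6 in each at day 8, and their mean level was 4.96 to 5.40 on the iHC arrays and 5.61 to 6.81 on the EB arrays. Tnnt2, cardiac troponin T, had differences of -2.52 and -2.39 at day 12 and -3.38 and -3.04 at day 8, in Dox+RA and Dox iHCs each time, and Nppa, which encodes an atrial peptide, was higher in all 4 groups by 0.97 to 1.44. Of 6 skeletal muscle markers, 1 or 2 were higher in each iHC group and none lower, with Myod1 and Myog, the myogenic factors, not called. The mean level of these 6 was 4.95 to 5.42 on the iHC arrays and 4.58 to 4.81 on the EB arrays. Ckm, the muscle creatine kinase, had 9.39, 9.34 and 8.13 in Dox+RA iHCs and 8.72, 8.22 and 7.21 in Dox iHCs at day 12, against 5.73 and 6.11 in EBs. Its difference was 3.03 and 2.13 at day 12 and 2.33 in Dox+RA iHCs at day 8, and 0.95 with an adjusted p of 0.154 in Dox iHCs at day 8. Like Cox7a1 it was lowest on replicate 3 of every iHC group. The part of any muscle cells in the Cox7a1 and Cox8b values was not tested.

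The other paralog pairs differed less. Cox6a1, the common form of subunit 6a, was higher by 0.44 and 0.29 at day 12 and by 0.26 in Dox+RA iHCs at day 8, and the muscle form Cox6a2 was higher by 0.27 and 0.31 at day 12 and not called at day 8, though with the replicate block it was lower in Dox+RA iHCs (-0.23, adjusted p 0.0491). Cox4i1, the common form of subunit 4, was lower by 0.34 in Dox+RA iHCs and 0.31 in Dox iHCs at day 12 and by 0.36 in Dox+RA iHCs at day 8. Cox4i2, the form best known from lung and from low oxygen, was called in Dox iHCs at day 12 alone, where it had 6.37, 6.80 and 6.21 against 5.58 and 5.93 in EBs, a difference of 0.71 ± 0.17 (limma adjusted p 0.00361) that was not called without the first EB array. Cox6b2, known from testis, was lower by 0.76 at day 12 and by 0.61 at day 8 in Dox+RA iHCs and was not called in Dox iHCs. Its common counterpart Cox6b1 was lower by 0.51 in Dox+RA iHCs at day 8. Cox7b and Cox7b2 were lower by 0.33 and 0.25 in Dox+RA iHCs at day 12, calls that were lost with the replicate block (-0.31 with an adjusted p of 0.0667 and -0.24 with 0.0705). Cox7b2 is a dim row, with values of 2.78 to 3.09 on all 16 arrays, so its difference lies between low values, and a second, dimmer row for Cox7b had a difference of 0.01. Cox5b and Cox7a2l were called in no group. The calls of Cox6a1, Cox6a2, Cox4i1 and Cox6b2 given above were lost without 1 or more single arrays, EB arrays among them, apart from that of Cox6a1 in Dox+RA iHCs at day 12 and that of Cox4i1 in Dox+RA iHCs at day 8.

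Ndufa4, first described in complex I and now placed in complex IV, had 6.32, 6.15 and 6.27 in Dox+RA iHCs and 6.30, 6.57 and 6.39 in Dox iHCs at day 12, against 7.22 and 7.39 in EBs. At day 8 it had 6.61, 6.73 and 6.32 in Dox+RA iHCs and 6.73, 7.02 and 6.62 in Dox iHCs, against 7.47 and 7.75 in EBs. No iHC array overlapped the EBs of its day. The difference was -1.06 ± 0.14 and -0.88 ± 0.14 at day 12 and -1.06 ± 0.14 and -0.82 ± 0.14 at day 8, or 1.76 to 2.08-fold lower (limma adjusted p of at most 0.00037). Its paralog Ndufa4l2, known as a hypoxia-induced gene, was higher by 0.76 ± 0.14 in Dox iHCs at day 8 (limma adjusted p 0.00063) and was not called in the other groups. The EB values of Ndufa4l2 at day 8, 4.45 and 4.21, were below the lowest array median of 5.14. The size of this difference thus rests on values that may be near background. Of 8 pericyte and vascular smooth muscle markers, a cell type in which Ndufa4l2 and Cox4i2 are known, 1 was higher and 4 lower in each iHC group at day 12, and at day 8 2 were higher and 3 lower in Dox+RA iHCs and 1 and 3 in Dox iHCs, with a mean level of 4.86 to 5.38 on the iHC arrays and 5.77 to 6.12 on the EB arrays. Their part in these values was not tested. Cox5a, the subunit that carries a thyroid hormone binding site, was lower by 0.64 and 0.55 at day 12 and 0.90 and 0.57 at day 8. Of these, the Cox5a value of Dox+RA iHCs at day 8 alone kept its call under all 25 other settings. With the replicate block the Dox calls were lost (-0.50 with an adjusted p of 0.0562 at day 12 and -0.52 with 0.053 at day 8).

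The ATP synthase genes were lower or not called, apart from 2. Of its 18 genes, 2 were higher and 7 lower in Dox+RA iHCs at day 12, 0 and 5 in Dox iHCs at day 12, 0 and 6 in Dox+RA iHCs at day 8 and 0 and 4 in Dox iHCs at day 8. The share lower was 38.9%, 27.8%, 33.3% and 22.2% in that order, against 22.4%, 21.7%, 22.0% and 18.9% of all genes. The share higher was below that of all genes in each group. Atp5b, the catalytic beta subunit, had 10.92, 10.93 and 10.80 in Dox+RA iHCs and 10.99, 10.87 and 10.84 in Dox iHCs at day 12, against 11.09 and 11.16 in EBs. The iHC arrays were all below the EBs, by a mean of 0.24 ± 0.09 and 0.23 ± 0.09 on the log2 scale (limma adjusted p 0.0308 and 0.0445). Neither call was kept with the arrays at a common median, and with the replicate block the Dox value was -0.21 with an adjusted p of 0.0682.

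Other subunits had larger decreases than Atp5b, not all of them seen on a second row of the gene. Atp5k, a small membrane subunit, fell by 0.42 and 0.56 at day 12 and by 0.37 and 0.40 at day 8, and Atp5g2, 1 of the 3 genes for the ring subunit, by 0.48 and 0.43 at day 12 and by 0.57 and 0.29 at day 8. Atp5g1, which encodes the same ring subunit, was a dim row (3.09 to 3.95 over the 16 arrays) and was higher by 0.42 in Dox+RA iHCs at day 12 (limma adjusted p 0.0237), a call that was lost without the third iHC array of that group. Atp5h, a stalk subunit, was lower by 0.46 and 0.57 at day 12 and by 0.59 and 0.48 at day 8. A second row for Atp5h had differences between -0.04 and 0.19, and a mean over both rows was not called. Each Atp5h call was also lost without EB replicate 2 of its day, and the Dox call of Atp5g2 at day 8 without EB replicate 2 or Dox replicate 1 or 3. Atp5g3, the last of the ring genes, was lower by 0.36 in Dox+RA iHCs at day 12 and by 0.44 in both iHC groups at day 8. Atp5e was lower by 0.55 and 0.79 at day 12 and by 0.46 in Dox+RA iHCs at day 8, and its second row had -0.01 and -0.05 at day 12 and 0.01 in Dox+RA iHCs at day 8. With the mean over both rows the day 8 call was lost (-0.23, adjusted p 0.115). Atp5a1, the alpha subunit, was called in Dox+RA iHCs at day 12 alone (-0.26, lost without either EB array), and Atp5c1, the gamma subunit, in no group.

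**Figure D4:**
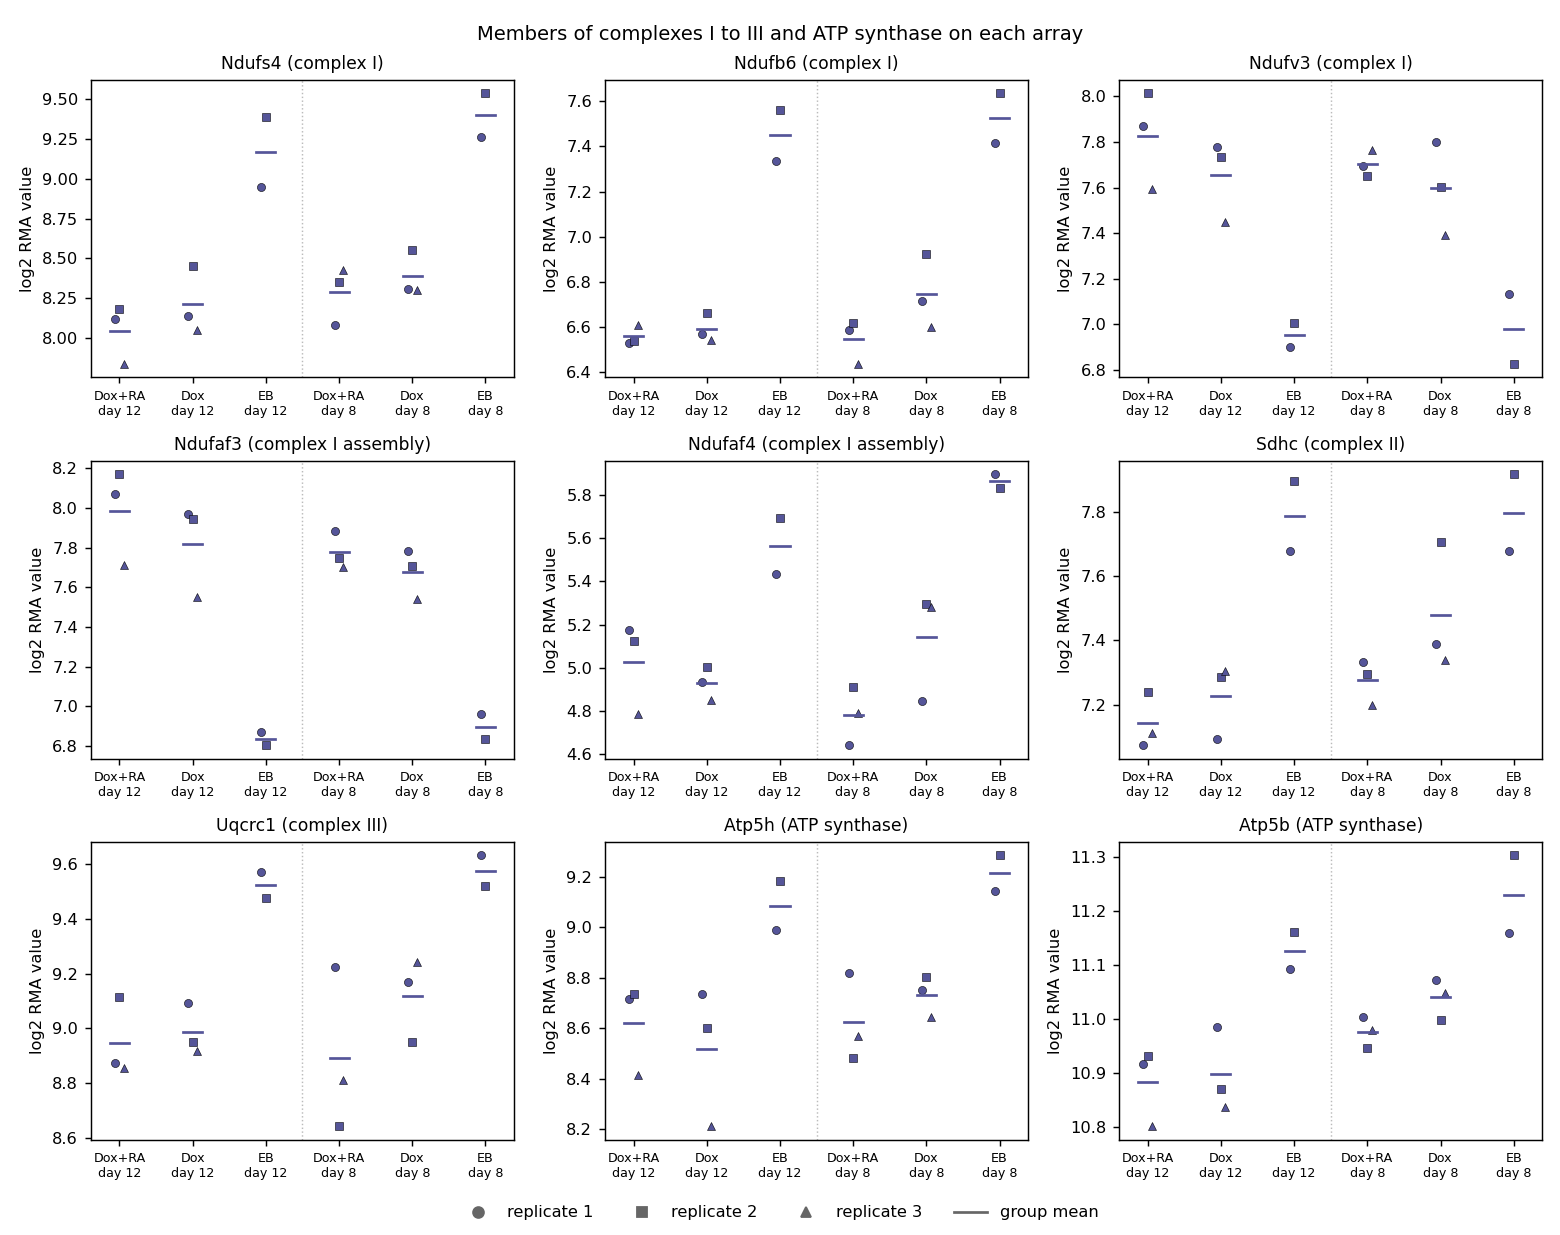
Log2 RMA value on each of the 16 arrays, by group, for 9 genes of complexes I to III, complex I assembly and the ATP synthase, with symbols for replicate 1, 2 and 3 and a bar at the group mean. Ndufv3 and Ndufaf3 lie above the EBs on all iHC arrays, and Ndufs4, Ndufb6, Ndufaf4, Uqcrc1, Atp5h and Atp5b lie below the EBs of the same day on all of them.

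Adding RA to Dox called none of the 89 genes at day 12 or at day 8 by limma, where 0.924% and 4.93% of all genes were called. At an unadjusted p under 0.05 there were 4 genes at day 12 and 9 at day 8, 8 of the 9 lower with RA. These are not calls. The share of all genes at that threshold was not worked out, so they cannot show a trend particular to the members. With the replicate number as a block, none was called at day 12, at 3.26% of all genes, and 4 (4.49%) were called at day 8, at 11.0% of all genes, among them Atp5g2 (-0.28, adjusted p 0.0255), Cox6b2 (-0.55, 0.0434) and Ndufa4l2 (-0.47, 0.0382). The nearest to a call at day 8 was Ndufa4l2, with 4.63, 4.70 and 4.54 in Dox+RA iHCs against 4.87, 5.16 and 5.25 in Dox iHCs. These arrays did not overlap, with a difference of -0.47 ± 0.13 (limma adjusted p 0.0501). All the Dox+RA values and the lowest Dox value were below 5.14, the lowest array median, and may be near background.

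From day 8 to day 12, few genes were called. In Dox iHCs, 3 genes were lower at day 12 than at day 8 and none higher, where 8.05% of all genes were called. These were Ndufa6, a complex I subunit (-0.47 ± 0.13), Sdhd (-0.31 ± 0.08) and Cox6b2 (-0.78 ± 0.19). In Dox+RA iHCs, Ndufaf2, a late complex I assembly factor, was higher at day 12 by 0.68 ± 0.14 and Uqcrh-ps1 was 1.99-fold higher, while Uqcrh was lower by 0.45 ± 0.10, where 4.38% of all genes were called. With the replicate number as a block, 10 genes were called in Dox iHCs, 1 higher and 9 lower, and 6 in Dox+RA iHCs, 3 in each direction. These are 11.2% and 6.74% of the members, against 14.2% and 9.06% of all genes in the blocked fit. The named genes gained were Atp5g2 (-0.25), Cox4i1 (-0.28), Cox6b1 (-0.36), Ndufa4 (-0.37) and Uqcrh (-0.32) in Dox iHCs, with adjusted p between 0.0285 and 0.0459. In Dox+RA iHCs they were Cox6b2 (-0.61), Cox7a1 (0.87) and Cox8b (-0.81), with adjusted p between 0.0239 and 0.032. Without replicate 3 of day 12, 8 were called in Dox iHCs, and the fits without replicate 1 of day 12, replicate 2 of day 8 or replicate 3 of day 8 called none, while those without replicate 1 of day 8 or replicate 2 of day 12 called 1. For Dox+RA iHCs, leaving out the first day 8, first day 12 or second day 12 array left 1. Shares of all genes are not given for these fits without an array.

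Control EBs had no member called between the days by limma, at 3.75% of all genes, and 8 at an unadjusted p under 0.05. No member was called for a change over time that differed between Dox iHCs and EBs, Dox+RA iHCs and EBs, or Dox+RA and Dox iHCs, where 2.84%, 2.62% and 0.00902% of all genes were called. At an unadjusted p under 0.05 there were 6, 7 and 4 members. For these unadjusted counts and that of the EBs, the share of all genes was not worked out. With the replicate number as a block, 1 member, Cox6a2, was called for each iHC group against EBs (0.47 with an adjusted p of 0.041 for Dox+RA iHCs and 0.47 with 0.0386 for Dox iHCs) and none for Dox+RA against Dox iHCs.

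Replicate 3 of the iHC groups was lower than replicates 1 and 2 in these genes. The mean log2 value over the 89 genes on replicates 1, 2 and 3 was 7.08, 7.08 and 6.91 in Dox+RA iHCs and 7.04, 7.04 and 6.89 in Dox iHCs at day 12, against 7.06 and 7.09 in EBs. At day 8 it was 7.10, 7.05 and 6.98 in Dox+RA iHCs and 7.11, 7.15 and 7.01 in Dox iHCs, against 7.09 and 7.19 in EBs. Replicate 3 was the lowest array in each iHC group, and the mean of 8 hair cell markers was lowest there too, at 7.07 against 7.63 and 7.39 on the other Dox+RA arrays of day 12. With these 4 arrays left out, which was chosen after the values were seen, 33 and 35 members were called in Dox+RA and Dox iHCs at day 12 and 33 and 25 at day 8. The share of all genes called in that fit is not given, so these counts show no change of the members relative to all genes. The part of this replicate in the member values was otherwise not tested.

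Other mitochondrial genes can be set beside the members. At day 12, 22.4% and 19.2% of all genes were higher and 22.4% and 21.7% lower, in Dox+RA and Dox iHCs each time. At day 8, 19.6% and 15.7% were higher and 22.0% and 18.9% lower. The counts of all lists below stand beside these shares. Cycs, the mobile carrier cytochrome c, was lower by 0.76 and 0.72 at day 12 and by 1.04 and 0.75 at day 8, in Dox+RA and Dox iHCs each time. Among 15 genes for mobile carriers and coenzyme Q, 7 and 6 were higher and 3 and 3 lower at day 12, and 4 and 3 higher and 4 and 4 lower at day 8. Coq8b, needed for coenzyme Q synthesis, was higher in all 4 groups by 1.51 to 1.81. Of 71 genes for the mitochondrial ribosome, which makes the mitochondrially encoded subunits, 27 and 25 were lower and 9 and 6 higher at day 12, and 32 and 27 lower and 3 and 1 higher at day 8. The median difference of that list was -0.22 and -0.18 at day 12 and -0.30 and -0.22 at day 8. Mrpl42 had differences between -2.08 and -1.39 and Mrps27 between -1.79 and -1.15, all called lower. Of 41 other assembly factors, 15 and 10 were higher and 9 and 9 lower at day 12, and 10 and 5 higher and 11 and 9 lower at day 8. Tmem70, which helps to assemble the ATP synthase, was higher by 0.91 and 0.67 at day 12 and by 1.17 and 0.78 at day 8. Sdhaf1, a complex II assembly factor, was higher by 1.11 and 0.62 at day 12 and by 0.56 in Dox+RA iHCs at day 8.

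Of 21 regulators of mitochondrial biogenesis, 2 and 3 were higher and 6 and 6 lower at day 12, and 3 and 3 higher and 9 and 6 lower at day 8. Pprc1, a growth-responsive coactivator of the PGC-1 family, had 5.52, 5.56 and 5.57 in Dox+RA iHCs and 5.21, 5.58 and 6.04 in Dox iHCs at day 12, against 7.01 and 7.39 in EBs. All iHC arrays were below the EBs, with log2 differences of -1.65 and -1.59, and of -2.03 and -1.59 at day 8, in Dox+RA and Dox iHCs each time. Nrf1, which encodes NRF1, fell by 0.52 and 0.66 at day 12 and by 0.57 and 0.53 at day 8. Esrra, an estrogen-related receptor, was higher by 0.48 and 0.39 at day 12 and by 0.49 and 0.45 at day 8. The part of either factor in the member values was not tested. Ppargc1a, the best known coactivator of the family, and Tfam, which maintains and transcribes mitochondrial DNA, were not called. Dim rows were marked only among the members, so a missing call of a regulator does not show an unchanged level. Gabpa, the DNA-binding subunit of GABP, was higher by 0.40 in Dox iHCs at day 12 and by 0.49 in Dox+RA iHCs at day 8, and had differences of 0.35 and 0.28 that were not called in the other iHC groups. The 4 markers of cycling cells were lower in all 4 iHC groups, with a mean between 4.79 and 7.25 on the iHC arrays and between 8.72 and 9.02 on the EB arrays. The part of that difference in the member values was not tested.

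In fuel metabolism, genes moved in both directions in each list. Of 18 genes of the tricarboxylic acid cycle and pyruvate dehydrogenase, 5 and 3 were higher and 3 and 3 lower at day 12, and 4 and 1 higher and 8 and 5 lower at day 8, with median differences of -0.09 and -0.07 at day 12 and -0.25 and -0.22 at day 8. Idh2, the mitochondrial isocitrate dehydrogenase, fell by 2.01 and 1.67 at day 12 and by 1.74 and 0.86 at day 8, and Fh1, fumarase, by 0.96 and 0.81 at day 12 and by 0.91 and 0.58 at day 8. Of 18 glycolysis genes, 5 and 5 were higher and 4 and 4 lower at day 12, and 4 and 4 higher and 5 and 3 lower at day 8, with medians between -0.08 and 0.10. Ldhb, a lactate dehydrogenase subunit, fell by 2.16 and 1.92 at day 12 and by 1.60 and 1.42 at day 8, and Pfkp, a phosphofructokinase, rose by 1.89 and 1.92 at day 12 and by 1.79 and 1.67 at day 8. Of 17 hypoxia-induced genes, 3 and 7 were higher and 2 and 2 lower at day 12, and 6 and 7 higher and 2 and 2 lower at day 8. Their median difference was 0.01 and 0.06 at day 12 and 0.20 in Dox+RA iHCs and 0.67 in Dox iHCs at day 8, against 0.05 and 0.02 for all genes at day 8. Car9, a carbonic anhydrase induced by hypoxia, was higher by 1.01 in Dox+RA iHCs and 2.02 in Dox iHCs at day 8 and by 1.53 in Dox iHCs at day 12, while Ndufa4l2 was called in Dox iHCs at day 8 alone. The Car9 difference of 0.28 in Dox+RA iHCs at day 12 was not called. Of 22 import genes, 3 and 3 were higher and 6 and 6 lower at day 12, and 4 and 1 higher and 7 and 5 lower at day 8, and of 11 antioxidant genes 3 and 3 were higher and 5 and 5 lower at day 12, and 2 and 1 higher and 5 and 5 lower at day 8. The medians of the import list lay between -0.10 and -0.04 and those of the antioxidant list between -0.26 and -0.09. Timm50, a subunit of the inner membrane translocase, was higher by 1.07 and 0.81 at day 12 and by 0.98 and 0.85 at day 8, and Cat, catalase, fell by 2.24 in Dox+RA iHCs at day 12 and by 2.17 and 1.39 in Dox+RA and Dox iHCs at day 8, and was called lower in Dox iHCs at day 12 too.

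The genes most like the members as a whole were ranked by Pearson correlation over the 16 arrays with the mean standardized value of 81 subunit genes. These were Tomm22, a receptor for mitochondrial protein import, at 0.94, Pbrm1 at 0.93, Psmc1, a proteasome subunit, at 0.92, Cs, citrate synthase, at 0.92, and Enpp3 at 0.91. The arrays share groups and replicate numbers, so these values are a description.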

How the data were processed

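The authors deposited log2 values from RMA (background correction, quantile normalization and probe set summary) in a series table. RMA and Affymetrix Expression Console are named per the submitters' processing notes, and no version is given in those notes. The deposited log2 values were used without further normalization, and array medians over all rows lay between 4.67 and 4.82. Rows were named through GEO's platform annotation: of 33708 rows, 23521 had a single symbol, 1814 had several and 8373 had none. For the 1082 genes with more than 1 row, the row of highest mean was kept, without a filter on dim rows, which gave 22180 genes.

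A model of 6 group means with 12 contrasts was fitted to all genes in limma 3.58.1 (R 4.3.3) and tested on simulated data. Benjamini-Hochberg adjustment ran over all genes, and ± gives the limma standard error. The contrasts were 9 pairs of groups and 3 differences between time changes. Same-numbered iHC arrays deviated together from their group means (correlations of 0.147 to 0.513 in all 18 pairs, against -0.415 to 0.201 for different numbers), so the replicate number pairs the iHC samples. With control EBs the same-number correlations were 0.026 to 0.178. The labels do not say what a number marks, and no batch is given.

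The named genes were 33 chosen by name and the called members with the largest differences in each class and contrast, 50 in all. Ndufa11 and Atp5d, not among these, are given for their second rows. The members and lists were chosen with earlier results of these data known. Alternatives were 9 settings fixed at the start, which include leaving out each of the 16 arrays, and 1 added after seeing the data. Figures and counts used Python 3.11.15. The number of arrays limits the precision.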

Additional observations from a re-analysis of the deposited data

How the results depend on the processing

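With 2 EB arrays a group, the comparisons with EBs rest on few controls. Of 107 calls of named genes against EBs, 57 kept their direction and their call under all 25 other settings and 50 lost the call under 1 or more, none with a change of direction. Counts of members called against EBs stayed within 1.5 times under every setting that kept all arrays. Without 1 array they ranged from 23 to 45 for Dox+RA iHCs and 21 to 39 for Dox iHCs at day 12, and from 24 to 38 and 15 to 26 at day 8. For Dox+RA against Dox iHCs at day 8 (0 called), 1 member was called with a variance trend and robust moderation, 1 with dim genes left out, 3 with quantile normalization, 4 with array weights and 4 with the replicate block. At day 12 (0 called), 1 was called with array weights and 1 without the iHC arrays numbered 3. Without 1 array these ranged from 0 to 3 and from 0 to 1. For day 12 against day 8 in Dox iHCs (3 called), 7 were called with dim genes left out, 7 with array weights, 10 with the replicate block, 8 without the iHC arrays numbered 3 and 0 with only the 2 groups compared in the fit, with a range of 0 to 8 without 1 array. In Dox+RA iHCs (3 called) these were 1, 5, 6 and 6, with no change for only the 2 groups and a range of 1 to 4. Of the 0 members called for the time change in Dox iHCs minus that in EBs, 1 was called with a common median, 1 with quantile normalization, 1 with the replicate block and 1 without the iHC arrays numbered 3. For Dox+RA iHCs minus EBs, 1 was called with quantile normalization, 2 with array weights, 1 with the replicate block and 2 without those arrays. All 3 differences of time changes ranged from 0 to 1 without 1 array, and EBs over time stayed at 0. The replicate block moved no other count by over 1.5 times, and it changed no call of a named gene beyond those given with their blocked values. Apart from the shares stated in the Results, the share of all genes called is not given for these settings. The counts thus do not show a change of the members relative to all genes. The cause of the changes in count was not tested.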
